A study of Mus musculus with 11 samples.

Results

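Mitochondrial ribosomal proteins build the ribosome inside mitochondria, and their genes were followed in 11 RNA-sequencing libraries of mouse hindlimb muscle. The set was every gene whose symbol is Mrpl or Mrps followed by a number, with an optional letter a, b or c. It held 78 genes of the 13359 listed for either muscle, and all 78 were listed and tested in both. Of these, 51 belong to the large subunit and 26 to the small subunit. Mrps18a and Mrps30 are counted in the large subunit despite their symbols, and Mrps36, which now counts as a subunit of the 2-oxoglutarate dehydrogenase complex, was kept as a named member outside both.

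Soleus, a postural muscle rich in slow fibres, and quadriceps, a mostly fast muscle, came from mice 2.5 months old. The Myc groups carried a doxycycline-inducible system for Myc overexpression, were given doxycycline overnight and were sampled 12 hours after it was taken away. Controls were animals of the same age. Their genotype, whether they received doxycycline, the strain and the promoter or cell type that drives the system are not given in the sources used here. Groups were soleus control (n = 3), soleus Myc (n = 4), quadriceps control (n = 2) and quadriceps Myc (n = 2).

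Mitochondria keep a small genome that encodes core subunits of the respiratory chain and of ATP synthase. A dedicated ribosome translates these messages in the matrix, with RNA made from mitochondrial DNA and proteins made from nuclear genes and imported. Part of these proteins descend from bacterial ribosomal proteins, and others are found only in mitochondrial ribosomes. In muscle, whose oxidative fibres are packed with mitochondria, this machinery must be kept in step with the nuclear-encoded subunits of the same respiratory complexes. Myc is a transcription factor known for raising genes of ribosome production, and it binds the sequence CACGTG, called an E-box.

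Promoter windows from RefSeq (build GRCm38.p6) ran from 250 bases before a transcription start to 50 bases after it, and 69 of the 78 members had one. The 3 below belong to members whose rise in soleus, given further on, held in every alternative analysis. They are shown because Mrpl36 is the one member that rose with an E-box in its window, and Mrps18b and Mrps27 hold CCGGAAG, a binding sequence of the ETS family, which includes the mitochondrial gene regulator GABP. Capitals mark the motif, which in both of the latter reads as its reverse complement. Each is written 5′ to 3′ on the gene's strand.
Mrpl36, chr13:73330759-73331058, plus strand: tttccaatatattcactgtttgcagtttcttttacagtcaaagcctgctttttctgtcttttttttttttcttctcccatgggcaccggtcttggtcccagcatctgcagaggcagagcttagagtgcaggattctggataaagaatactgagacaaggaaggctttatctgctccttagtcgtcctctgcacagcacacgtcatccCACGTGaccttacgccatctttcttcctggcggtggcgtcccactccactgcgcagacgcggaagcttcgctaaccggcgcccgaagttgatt
Mrps18b, chr17:35916391-35916690, minus strand: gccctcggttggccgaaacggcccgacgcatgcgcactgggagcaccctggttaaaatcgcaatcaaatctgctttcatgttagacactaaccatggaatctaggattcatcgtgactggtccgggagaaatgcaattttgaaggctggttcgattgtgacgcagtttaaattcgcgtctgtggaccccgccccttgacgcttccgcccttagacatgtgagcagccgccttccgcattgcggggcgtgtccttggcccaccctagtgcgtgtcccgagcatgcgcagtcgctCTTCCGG
Mrps27, chr13:99344536-99344835, plus strand: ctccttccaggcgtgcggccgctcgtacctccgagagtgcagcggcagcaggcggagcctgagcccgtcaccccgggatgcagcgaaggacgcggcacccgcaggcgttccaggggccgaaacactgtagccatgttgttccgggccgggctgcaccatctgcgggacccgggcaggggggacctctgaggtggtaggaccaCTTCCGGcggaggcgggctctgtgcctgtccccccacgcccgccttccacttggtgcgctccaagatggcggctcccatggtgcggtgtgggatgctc

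In these windows the E-box of Mrpl36 starts at position -43 from the start site, and the ETS motif of Mrps27 at position -48. The ETS motif of Mrps18b starts at +44, after the start site and at the end of its window. Over both strands, CACGTG was found in the windows of 5 of 69 members (7.25%), against 12.0% of the 10138 genes tested in soleus that have a window. CCGGAAG was found in 26 of 69 (37.7%), against 19.5% of those genes. The palindromic core site of NRF1, a regulator of respiratory genes, was found in 3 of 69 (4.35%), against 2.26%. Over all 32851 windows of this length in the table the shares were 7.15%, 8.86% and 0.971%. These are counts of matching letters, with no test between members and other genes. Among the 11 members that rose in soleus and have a window, 1 held the E-box, 4 the ETS motif and 1 the NRF1 motif, that of Mrpl32. Among all 743 genes that rose in soleus and have a window, 19.7% held the E-box, 31.0% the ETS motif and 2.29% the NRF1 motif. The 58 other members with a window held them in 4, 22 and 2 genes.

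Levels are normalised read counts: estimated reads divided by 1 size factor per library. Estimated depth was 11.09 to 14.85 M reads in soleus and 14.21 to 18.38 M in quadriceps. The row of Myc itself did not separate the groups. Its level was 30.04, 54.32 and 28.17 in soleus controls and 26.28, 30.97, 28.79 and 27.71 in soleus Myc libraries (log2 change -0.33, limma, adjusted p = 0.69). In quadriceps it was 113.7 and 55.69 in controls and 86.39 and 33.55 in Myc libraries (log2 change -0.55, limma, adjusted p = 0.93). All directions here therefore rest on the labels, and "Myc libraries" means the libraries labelled so. All 6 skeletal muscle markers were present in every library. Slow-fibre markers summed to 40848 to 51395 ppm (parts-per-million of a library's summed values) in soleus, and in quadriceps to 1597 and 12507 ppm in controls but 123.4 and 245.4 in Myc libraries. Nothing states that the libraries of a group came from separate animals, so the p-values measure only the spread between these libraries.

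In soleus, 13 of the 78 genes rose in Myc libraries and 0 fell (limma on log2(value + 1), Benjamini-Hochberg adjusted p under 0.05 over all 12745 genes tested). That is 16.67% of the members, where 7.06% of all genes tested rose and 2.23% fell. The log2 change was above 0 in 61 members (78.2%, against 45.6% of all genes), and the median was 0.15, against -0.03 over all genes. Members ranged from -0.33 for Mrps12 to 0.88 for Mrps18b. Libraries of the groups did not overlap for 25 members that were higher and 3 that were lower, where 12.7% and 8.35% of all genes were. At an unadjusted p under 0.05 there were 22 higher and 3 lower members, against 12.9% and 8.77% of all genes. RNA per cell and the number of cells of a type cannot be told apart in bulk muscle.

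**Figure D1:**
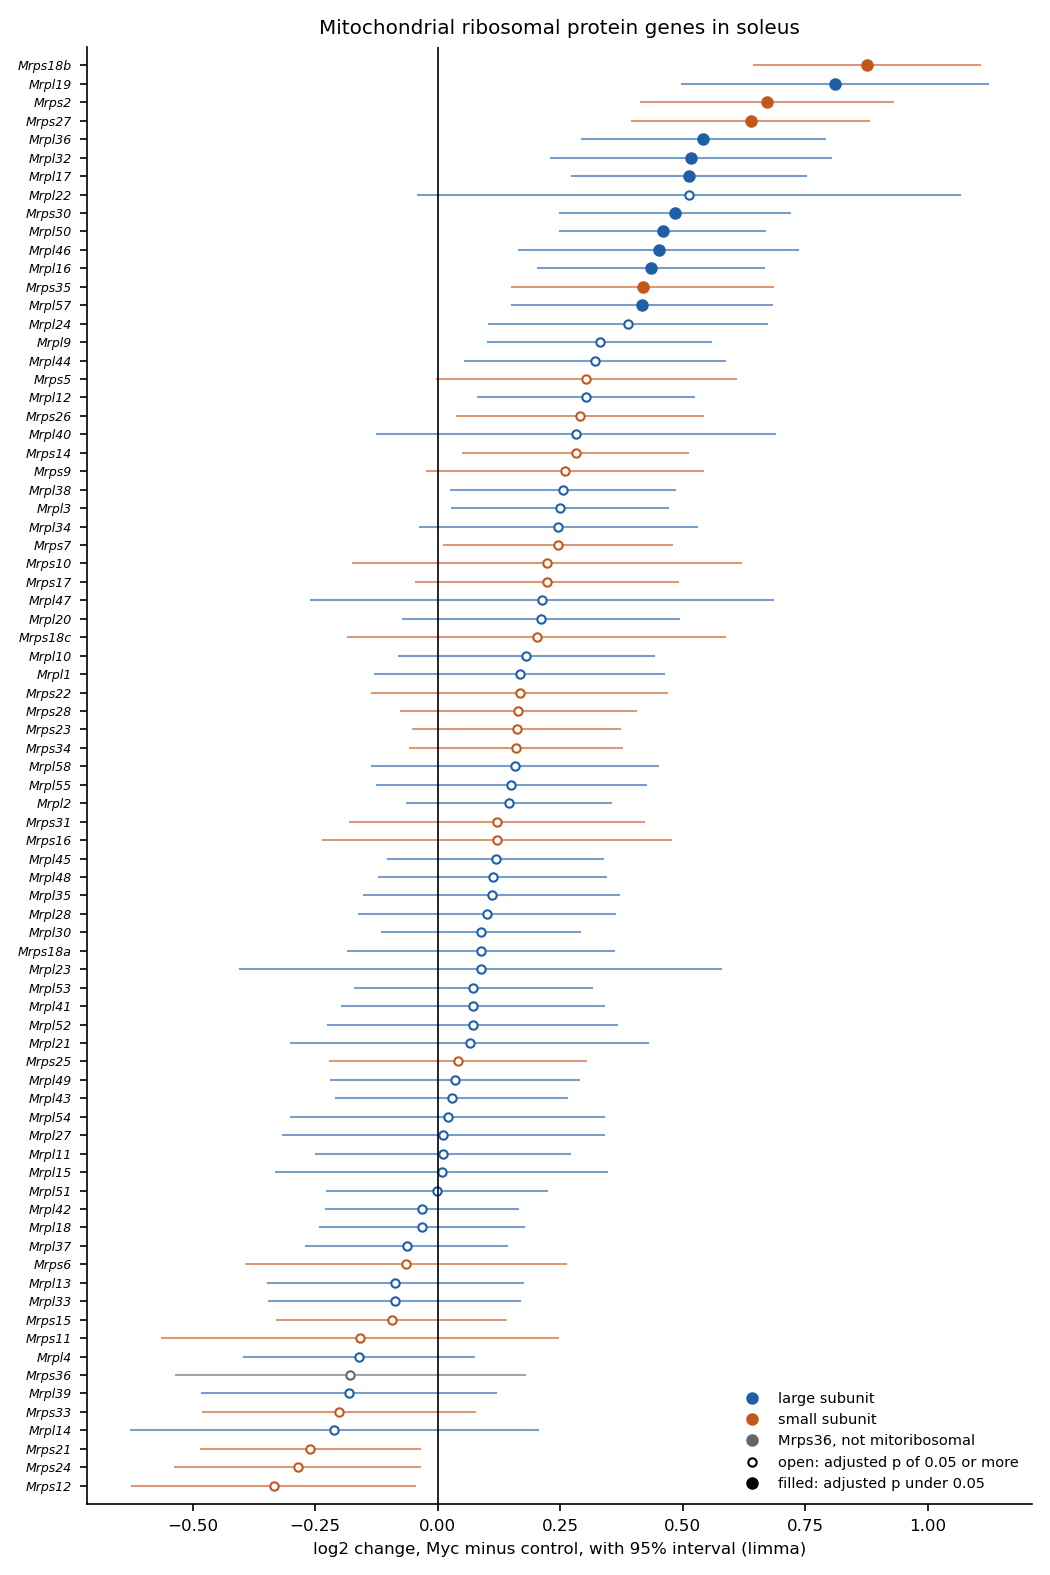
Log2 change in soleus (x axis, Myc minus control) of each of the 78 genes (y axis, sorted), with 95% limma intervals, coloured by subunit and filled where the adjusted p was under 0.05. Filled points number 13 and all lie to the right of 0, and the lowest point is Mrps12 at -0.33.

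Small-subunit genes gave 3 of the 4 largest changes. Mrps18b, one of a family of paralogs of bacterial S18, stood at 486.0, 496.7 and 538.8 in controls and at 842.0, 909.9, 1003 and 978.8 in Myc libraries. The lowest Myc library was far above the highest control, and the fit gave a log2 change of 0.88 (SE 0.11, limma, adjusted p = 5.6e-05), or 1.84-fold. Mrps2, the counterpart of bacterial S2, stood at 427.7, 383.2 and 379.2 in controls and 571.4, 605.2, 710.4 and 649.2 in Myc libraries. Its groups did not overlap either, with a log2 change of 0.67 (SE 0.12, limma, adjusted p = 0.0017). Mrps27, a pentatricopeptide repeat protein specific to the mitochondrial ribosome, stood at 553.1, 485.0 and 493.1 in controls and 768.0, 750.0, 761.1 and 905.5 in Myc libraries. All 4 Myc libraries exceeded the controls, with replicate 4 highest (log2 change 0.64, SE 0.12, limma, adjusted p = 0.0016). Mrps35, also specific to mitochondria, rose by less, by 0.42 (SE 0.13, limma, adjusted p = 0.049), with a control of 450.6 close to the lowest Myc library of 513.0.

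Among large-subunit genes classed as of bacterial descent, 5 of 30 rose (16.67%, against 7.06% of all genes). Mrpl19, the counterpart of bacterial L19, stood at 382.6, 245.2 and 327.5 in controls and 554.1, 512.1, 570.2 and 565.6 in Myc libraries. The controls were spread more widely than the Myc libraries, and the groups did not overlap (log2 change 0.81, SE 0.15, limma, adjusted p = 0.0018). Mrpl36, whose E-box is printed above, is the counterpart of the small bacterial protein L36. It stood at 399.4, 390.9 and 366.3 in controls and 561.7, 590.1, 519.3 and 577.0 in Myc libraries, with tight groups on either side of a gap (log2 change 0.54, SE 0.12, limma, adjusted p = 0.0069). Mrpl32, which is matured by a protease of the inner membrane before it enters the ribosome, ranged from 284.2 to 334.0 in controls and from 391.3 to 499.8 in Myc libraries (log2 change 0.52, SE 0.14). Mrpl17 and Mrpl16, counterparts of bacterial L17 and L16, rose by 0.51 (SE 0.11) and 0.44 (SE 0.11). Their controls reached 770.1 and 544.2 and their lowest Myc libraries were 893.2 and 672.0.

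Large-subunit genes classed as specific to mitochondria rose in 4 of 21 (19.05%, against 7.06% of all genes). Mrpl50 had the smallest error among them, at 761.6, 766.3 and 810.0 in controls and 1151, 1010, 1085 and 1045 in Myc libraries. Controls and Myc libraries were well apart (log2 change 0.46, SE 0.10, limma, adjusted p = 0.0067). Mrps30, a large-subunit protein in spite of its name, was at 713.9 to 833.5 in controls and 966.6 to 1206 in Myc libraries (log2 change 0.48, SE 0.11). Mrpl46 rose by 0.45 (SE 0.14) and Mrpl57, one of the smallest proteins of the particle, by 0.42 (SE 0.13). For all 4 the lowest Myc library was above the highest control.

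**Figure D2:**
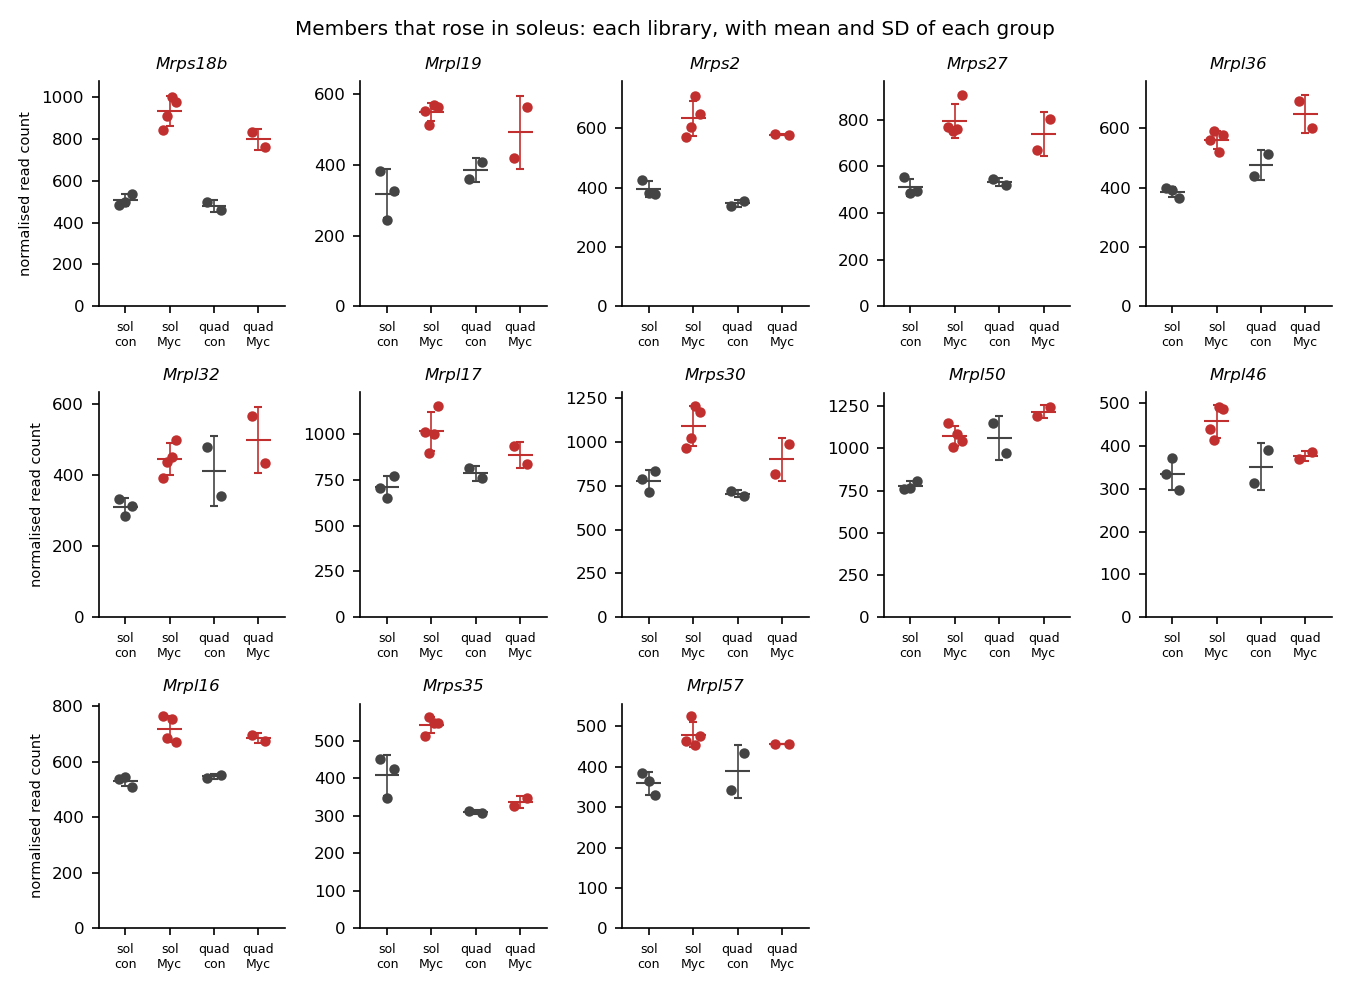
Normalised read count (y axis, from 0) of the 13 genes that rose in soleus, one panel each, by group (x axis), with each library as a point, the mean as a line and the SD as a bar. In all 13 panels the soleus Myc points lie above the soleus control points, and in Mrpl32 and Mrpl46 the quadriceps groups overlap.

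Of the 13, 6 kept an adjusted p under 0.05 in all 18 alternative analyses: Mrps18b, Mrps2, Mrps27, Mrpl19, Mrpl36 and Mrpl50. Their highest adjusted p was 0.0457, for Mrpl50 (limma). When control replicate 2 was left out, Mrpl17 and Mrps30 no longer passed (limma, adjusted p = 0.052 and 0.068). Mrpl32 lost its call without control replicate 2, Myc replicate 3 or Myc replicate 4 (limma, adjusted p = 0.12, 0.054 and 0.081), and Mrpl16 without any 1 control or Myc replicate 1 (limma, 0.052 to 0.056). Mrpl46, Mrpl57 and Mrps35 lost theirs whichever single library was left out. Without control replicate 2 the count of members that rose was 6, while 5.17% of all genes tested rose in that fit, and the 7 that no longer passed had log2 changes of 0.31 to 0.53.

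Tendon markers divided the soleus Myc group, and the members' count is given with and without the libraries in question. The 10 markers, none of them at 0, summed to 170.7 and 285.8 ppm in Myc replicates 3 and 4, to 567.2 and 644.7 in the other two Myc libraries and to 598.2 to 736.7 in controls. Fibroblast markers (11 of 11 listed) summed to 489.4 and 767.8 ppm in Myc replicates 3 and 4 and to 1511 and 1562 in replicates 1 and 2. Erythroid markers (5 of 7 listed) gave 321.5 and 255.7 against 489.6 and 614.8. Endothelial markers (9 of 9 listed) did not divide them so, with 1837 and 1772 against 1902 and 1791. The part of these tissues in the members' changes was not tested. The members' median log2 deviation from the control mean was 0.17 and 0.24 in replicates 3 and 4 and 0.11 and 0.09 in replicates 1 and 2. Without replicates 3 and 4 together, 6 members rose, the same 6 that are named above, while 3.79% of all genes tested rose in that fit of 5 libraries. The 7 others of the 13 had log2 changes of 0.35 to 0.46 there, and the median of all members was 0.09. Fast-fibre markers, 13 of 13 listed and none at 0, summed to 57203 to 60365 ppm in controls and to 40300 to 57812 in Myc libraries. Of the 13, 2 fell (Mylpf and Tpm1), where 2.23% of all genes tested did. The log2 change was above 0 in 0 of the 13, against 45.6% of all genes. Their median was -0.35, from -2.59 for Myh4 to -0.15 for Tnnc2. The part of fibre type in the members' changes was not tested.

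The 3 members with the lowest change in soleus are all small-subunit genes of bacterial descent. Mrps12, the counterpart of the decoding-site protein S12, stood at 383.5, 412.3 and 439.1 in controls and 301.8, 305.5, 325.9 and 375.1 in Myc libraries. Every Myc library was under every control, but the change did not pass the test (log2 change -0.33, SE 0.14, limma, adjusted p = 0.16). Mrps24 was 698.4 to 753.7 in controls and 503.7 to 656.3 in Myc libraries, and Mrps21 was 833.2 to 981.4 and 743.3 to 828.4. Their log2 changes were -0.29 and -0.26, with the groups apart in the same way and limma adjusted p = 0.16 for both.

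By subunit, 9 of 51 large-subunit (17.65%) and 4 of 26 small-subunit genes (15.38%) rose in soleus, where 7.06% of all genes did. Their medians were 0.12 and 0.17. Within the small subunit, 1 of 16 bacterial-family genes rose (6.25%), near the share of all genes, and 3 of 10 mitochondria-specific ones (30.0%). By nomenclature class, 6 of 46 bacterial-family (13.0%) and 7 of 31 mitochondria-specific genes (22.6%) rose, with medians of 0.17 and 0.12. Mrps18b, which rose, and Mrps18a count there as mitochondria-specific although they are paralogs of bacterial S18. The small subunit had the wider spread, since it held both the highest and the lowest 3 members. Mrps36, outside the ribosome, was at 299.5, 317.2 and 464.9 in controls and 265.4 to 348.4 in Myc libraries, with overlapping groups (log2 change -0.18, limma, adjusted p = 0.59).

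The other two S18 paralogs did not pass the test. Mrps18a, a large-subunit protein, was at 952.1 to 992.3 in soleus controls and 858.9 to 1291 in Myc libraries, so the groups overlapped (log2 change 0.09, 95% interval -0.18 to 0.36). Mrps18c, in the small subunit, was at 195.3 to 246.5 and 200.9 to 310.7 and overlapped as well (log2 change 0.20, 95% interval -0.18 to 0.59). The interval for Mrps18b, 0.64 to 1.11, lay above both. The difference between paralogs was not tested, and reads shared by near-identical copies could be split among paralogs or pseudogenes by the counting.

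Per 1000 coding bases, the level in soleus controls was highest for Mrpl33 (6788 normalised reads), Mrps21 (3543) and Mrpl51 (3387). It was lowest for Mrpl22 (154.3), Mrpl23 (244.5) and Mrps22 (245.6). Per 1000 bases of the whole transcript the order differed: Mrpl33 (2769), Mrpl42 (2058) and Mrps21 (1895) were highest, Mrpl51 stood at 379.5, and Mrpl47 (61.54), Mrpl19 (63.69) and Mrps5 (72.29) were lowest. Mrpl33, Mrps21 and Mrpl51 did not pass the test in soleus, with log2 changes of -0.09, -0.26 and 0.00. Mrpl22 had a log2 change of 0.51, as large as that of Mrpl17, with a 95% interval of -0.04 to 1.07. Its controls were 60.08, 114.5 and 111.5, and without control replicate 1, the lowest, its change was 0.21.

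In quadriceps, 0 of the 78 members passed the test in either direction, where 0.00815% of the 12270 genes tested were higher and 0% lower (limma, adjusted p under 0.05). The count was also 0 with limma-voom on estimated reads. At an unadjusted p under 0.05, 8 were higher and 0 lower, against 3.97% and 2.24% of all genes. The log2 change was above 0 in 65 members (83.3%, against 45.8% of all genes), with a median of 0.16 against -0.03 over all genes. With 2 libraries a group, 36 members were higher and 3 lower without overlap, and 18.3% and 16.9% of all genes were. The 3 lower ones were Mrpl33, Mrps33 and Mrps36.

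Mrps18b and Mrps2 were the highest members in quadriceps too. Mrps18b stood at 499.0 and 459.6 in controls and at 835.1 and 761.9 in Myc libraries. Its log2 change was 0.73 (SE 0.16, limma, adjusted p = 0.38). Mrps2 stood at 340.0 and 356.6 against 580.0 and 577.3, also with a log2 change of 0.73 (SE 0.16, limma, adjusted p = 0.38). For both, the gap between groups was several times the gap within them. In 1 fit over all 11 libraries, which shares the spread of both muscles, these 2 members passed the test in quadriceps (limma, adjusted p = 0.029 for Mrps18b and 0.039 for Mrps2), where 0.644% of all genes were higher. Mrpl20 was next, at 263.4 and 360.7 against 450.5 and 411.5 (log2 change 0.48, limma, adjusted p = 0.80). The lowest were Mrpl33 (-0.17), Mrps33 (-0.16) and Mrpl28 (-0.15), none of which passed the test. Mrpl28 depended on single libraries: it was 0.04 without Myc replicate 1 and -0.34 without Myc replicate 2. Beside these values stand the lower slow-fibre sums of the Myc libraries given above, and tendon markers summed to 17.39 ppm in Myc replicate 1 with 1 of 10 at 0, and were higher in the other three quadriceps libraries, reaching 248.3 in controls and 259.8 in Myc replicate 2; their part in the members' values was not tested.

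**Figure D3:**
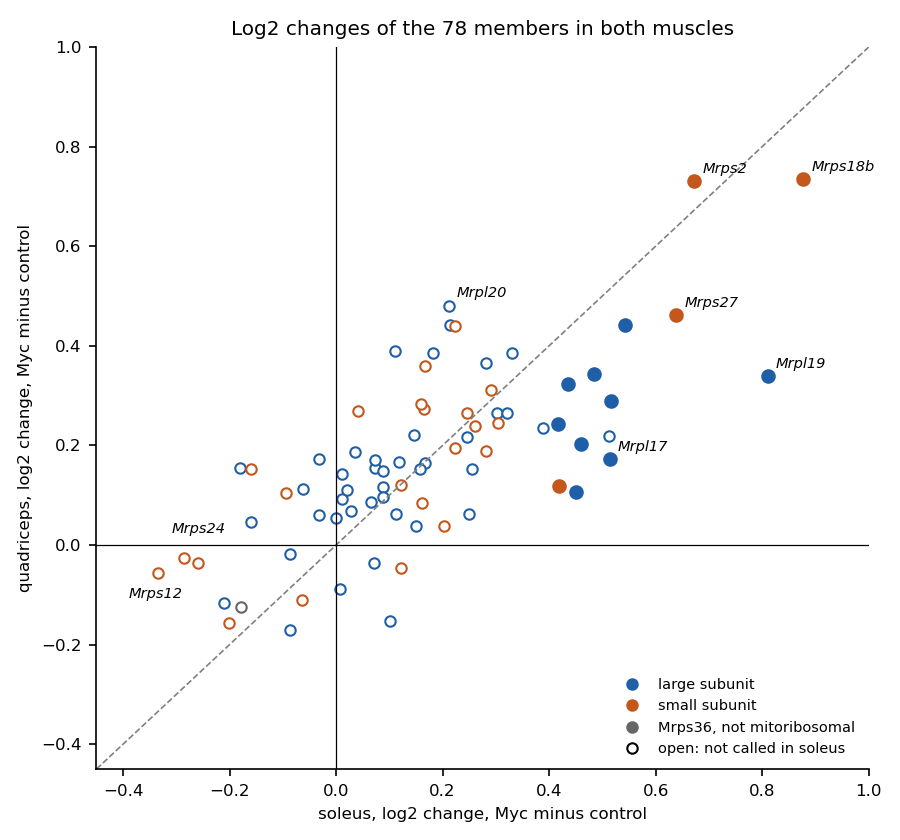
Log2 change (Myc minus control) of the 78 genes in soleus (x axis) and quadriceps (y axis), coloured by subunit and filled where the soleus adjusted p was under 0.05, with equality as a dashed line. The 13 filled points are all above 0 on both axes, with Mrps18b and Mrps2 at the upper right.

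The 2 muscles share no library, though libraries of the same number may come from the same animal. Of the members, 57 members were above 0 in both, where 31.5% of all genes tested in both were. A further 9 were below 0 in both, 4 were above 0 in soleus and below in quadriceps, and 8 were the other way round. Across the 78 members the log2 changes had a Pearson r of 0.72 and a Spearman rho of 0.72, given as a description, since genes are not independent and members share their libraries. All 13 that rose in soleus were above 0 in quadriceps, with a median of 0.32 there against 0.51 in soleus. For 11 of them the quadriceps groups did not overlap, where 18.3% of all genes and 36 of the 78 members were higher without overlap. Mrpl32 and Mrpl46 were the exceptions. The 65 others had a quadriceps median of 0.15, and 52 were above 0.

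The change in soleus minus that in quadriceps passed the test for 0 of 78 members in either direction, as for 0% of the 12118 genes tested (limma interaction, adjusted p under 0.05). No member reached an unadjusted p under 0.05, where 2.60% of all genes were higher and 0.586% lower, and limma-voom also gave 0. The difference was above 0 in 36 members (46.15%, against 54.1% of all genes), and the median was -0.02. That median turned to 0.03 with limma-voom (44 members above 0) and ran from -0.09 (24 members above 0, without quadriceps control replicate 2) to 0.04 (47, without quadriceps control replicate 1) with 1 library left out, so it carries no direction. The largest was that of Mrpl19, 0.47, with a 95% interval of -0.07 to 1.02, followed by Mrpl46 and Mrpl17 at 0.34 each. At the other end stood Mrpl39 (-0.33), Mrps11 (-0.31) and Mrpl35 (-0.28). The interval of Mrpl19 leaves room for a difference larger than its whole change in soleus, so the muscles were not shown to respond alike.

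Summed over the 78 genes, members made up 3719, 3681 and 3987 ppm of all values in soleus controls and 4359, 4283, 4268 and 4563 in Myc libraries. The groups did not overlap, with means of 3796 ± 167 (SD, n = 3) and 4368 ± 136 (SD, n = 4). In quadriceps the sums were 2774 and 3241 in controls and 3267 and 3776 in Myc libraries, so that the higher control nearly reached the lower Myc library. The 13 that rose accounted for 484 ± 19.6 ppm in soleus controls and 733 ± 19.1 in Myc libraries, a gap that follows from their choice in these same libraries. The 65 others made up 3312 ± 160 ppm in soleus controls and 3635 ± 118 in Myc libraries.

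**Figure D4:**
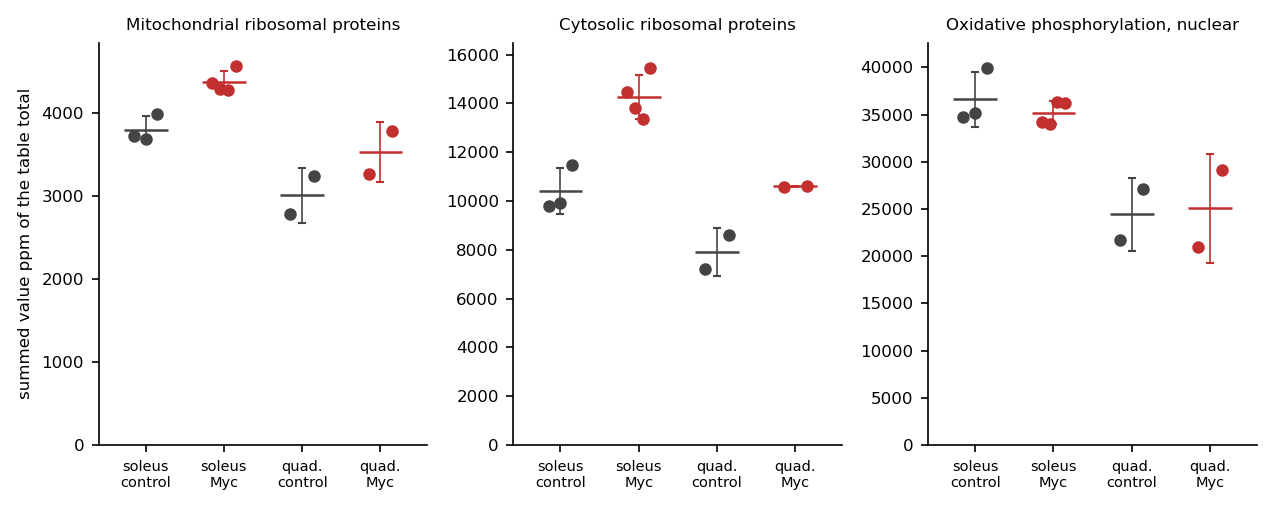
Summed values as a share of each library's total (y axis, from 0, where soleus controls average 3796 ppm in the first panel) for mitochondrial ribosomal proteins, cytosolic ribosomal proteins and nuclear oxidative phosphorylation subunits, by group (x axis), with each library as a point, the mean as a line and the SD as a bar. In soleus the first 2 sets are higher in all 4 Myc libraries than in any control, and the third overlaps.

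Cytosolic ribosomal proteins, which build the ribosome outside mitochondria, gave higher counts. Of 82 genes, 41 rose and 0 fell in soleus, with a median of 0.40, and their sum went from 10406 ± 948 ppm in controls (SD, n = 3) to 14263 ± 903 (SD, n = 4). Rpl3, a core large-subunit protein, had the smallest p of them, going from 539 ± 41.2 to 1741 ± 315. Nuclear subunits of oxidative phosphorylation, whose partners are made by the mitochondrial ribosome, gave a median below 0. Of 83 such genes 0 rose and 1 fell, Ndufa1 of complex I, by 0.51 (SE 0.13), and their median was -0.11. That 1 of 83 is no more than the 2.23% of all genes that fell. Their sum was 36622 ± 2901 ppm in controls and 35197 ± 1238 in Myc libraries, a difference within the spread of the controls. The difference between lists was not tested.

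Genes that assemble and serve the mitochondrial ribosome included larger changes than any member. Of 31 assembly and rRNA modification factors 8 rose in soleus (25.8%) and 0 fell, with a median of 0.30. Of all genes tested, 7.06% rose and 2.23% fell. C1qbp, a matrix protein, went from 1160 ± 12.4 to 2761 ± 260 (SD, n = 3 and 4), a log2 change of 1.25 (SE 0.10). Noa1, a GTPase of small-subunit assembly, went from 273 ± 42.4 to 577 ± 89.5, and Mrm3, a methyltransferase of the large rRNA, from 216 ± 6.24 to 391 ± 14.4. In none of these did the groups overlap. Of 17 mitochondrial aminoacyl-tRNA synthetases, which charge tRNAs for this ribosome, 6 rose (35.3%) and 0 fell, with a median of 0.50. Ears2, which charges glutamate tRNA, went from 117 ± 19.8 to 462 ± 48.9 (log2 change 1.97, SE 0.17), and Vars2, for valine, rose by 1.29.

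The other lists of this pathway are shorter, and none of their genes fell in soleus. Of 15 mitochondrial translation factors 1 rose (6.67%, against 7.06% of all genes): Lrpprc, which stabilises mitochondrial messages, by 0.37 (SE 0.11). Of 5 subunits of the ribosome that carry other names 1 rose, Ptcd3, a pentatricopeptide repeat protein of the small subunit, by 0.43 (SE 0.10). Dap3, another small-subunit protein, was at 783 ± 24.2 in controls and 802 ± 13.0 in Myc libraries, with overlapping groups. Of 17 regulators of mitochondrial biogenesis 4 (23.5%) rose: Pprc1, a coactivator related to PGC-1, by 1.17, the mitochondrial DNA helicase Twnk by 1.08, and the mitochondrial transcription factors Tfb2m and Tfam by 0.51 and 0.46. In quadriceps 0 genes of these lists, or of the cytosolic ribosomal or oxidative phosphorylation lists, passed the test.

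Divergent neighbours, genes that start close by and run the other way, share a promoter region with a member. For 23 of the 78 members (29.5%), a protein-coding gene on the opposite strand starts within 1000 bases upstream or a short way inside. The share was 11.6% of the 12052 protein-coding genes tested in soleus. Starts further inside a gene were not counted, such as those of Mrpl46 and Mrps11, which overlap each other. Among the 13 that rose the number was 6. Of the 23 partners 19 were tested in soleus, and 0 were called higher and 0 lower (limma, adjusted p under 0.05), where 7.06% and 2.23% of all genes were. The median log2 change was 0.22 for these partners and 0.20 for their 19 members. Mrps18b starts 45 bases from Ppp1r10, a regulatory subunit of protein phosphatase 1, whose log2 change was 0.17 (limma, adjusted p = 0.63). Mrpl36 starts 29 bases from Ndufs6 of complex I, whose change was -0.25 (limma, adjusted p = 0.33). That GENCODE start of Mrpl36 lies upstream of the whole RefSeq window printed above. The E-box in the window therefore does not lie between the starts of Mrpl36 and Ndufs6. Mrps27 starts 81 bases from Ptcd2, at 0.33 (limma, adjusted p = 0.13). Mrps12, the lowest member, starts 172 bases from Sars2, the mitochondrial seryl-tRNA synthetase, and there the partner was the higher one, at 0.50 (limma, adjusted p = 0.086).

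Exons of 28 members overlap a gene on the other strand and those of 8 a gene on the same strand in the GENCODE annotation. Of the 13 that rose, 6 overlap another gene: Mrpl19 with Gcfc2, Mrpl36 with Ndufs6, Mrpl46 with Mrps11, Mrps18b with Gm16279, Mrps27 with 6430562O15Rik, and Mrps30 with B430218F22Rik. Whether strand was used in the counting is not given in the sources used here, so reads of such pairs cannot be told apart.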

How the data were processed

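RNA was sequenced from soleus (3 control and 4 Myc libraries) and quadriceps (2 and 2), grouped by the titles in the labels. The values are a normalised signal per gene in 1 deposited table per muscle, made by the authors: estimated reads divided by 1 size factor per library. Tools listed in the submitters' processing notes are STAR 2.7.8a, DESeq2 and Partek, without their roles. Those notes list 2 builds, mm10 and mm39, so gene coordinates are not printed; promoter windows carry those of RefSeq GRCm38.p6. The division was read from the values. Between 91.0% and 93.4% of values under 300 were whole multiples of the step, within 0.02 of a read, too few to treat them as counts. No sample column was left unused.

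The test was limma 3.58.1 in R 4.3.3 on log2(value + 1), with a trend and robust moderation (statmod 1.5.0), in each muscle alone. Changes of low genes are understated on that scale. Genes needed a value of 10 in 3 soleus or 2 quadriceps libraries. P-values were adjusted over all genes tested. The difference between muscles was an interaction over all 11 libraries. Scripts were tested on simulated data. Replicates differed by more than counting noise, so each library counts once. Depth limits low genes, and error is that between libraries. GENCODE vM21 (GRCm38) served for lengths and neighbours.

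Replicate numbers are taken from the titles. Deviations from the group means of soleus and quadriceps libraries with the same number and condition correlated at 0.196, 0.274, 0.197 and 0.171. These met a fixed rule for pairing (all above 0.1). Control and Myc quadriceps libraries of the same number met it too (0.144). Of unlike number, soleus control replicate 3 and quadriceps control replicate 1 reached 0.167. With 2 quadriceps libraries a group the deviations mirror each other, so the rule cannot show that the numbers pair animals. Within soleus it was not met (0.001, 0.076 and 0.138).

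The members, gene lists and markers were chosen with earlier results of these data known. Genes named are Myc; members called in a muscle; the 3 extreme members per comparison and per 1000 coding bases; the S18 paralogs and Mrps36; and up to 4 genes per related list with the smallest soleus p. Rarer mentions (neighbours, other single genes) were chosen after their values were seen. Alternatives were other scalings (library size, TMM), limma-voom, pseudocounts of 0.5 and 5, no filter or one of 50, no robust moderation, a replicate block, 1 fit over both muscles and leaving out libraries. The late-life exercise data to which the series refers are not analysed here.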

Additional observations from a re-analysis of the deposited data

Results flagged for a closer look

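In each of 33 sets of soleus Myc libraries (4 libraries a set), the gap between the highest or lowest library and its nearest neighbour was compared with the whole range on the log2(value + 1) scale. Chance passes about 1 in 20 such sets, and 3 passed, all with replicate 4 high. Mrps27 stood at 905.5 in replicate 4 and at 750.0 to 768.0 in the other three, a gap of 0.874 of the range. Mrpl22 stood at 163.3 against 119.7 to 124.4, a gap of 0.878 of the range. Mrpl28 stood at 1051 against 806.0 to 824.5, a gap of 0.914 of the range. Without replicate 4, Mrps27 kept its call in soleus.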

How the results depend on the processing

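The count of 13 members that rose in soleus was 6 to 10 with 1 library left out, 6 without control replicate 2 and 6 without Myc replicates 3 and 4 together. Library-size scaling gave 15 members and TMM scaling 14, adding Mrpl9 (limma, adjusted p = 0.022 and 0.050) and, with library size, Mrpl12 (0.027). Of the 12745 genes tested, 1078 and 966 rose under these scalings, against 900 in the main fit. With the replicate block, in which Myc replicate 4 has no partner and drops out, 9 members rose in soleus, 0 passed in quadriceps and 0 for the muscles' difference, so no call of the difference changed. In quadriceps 1 fit over all 11 libraries gave 2 members where the fit of that muscle gave 0. The quadriceps median of 0.16 was 0.22 under library-size scaling (large subunit 0.22, small subunit 0.25, bacterial family 0.23, mitochondria-specific 0.22) and 0.081 to 0.23 with 1 library left out. Under library-size scaling the quadriceps median over all genes moved as well, from -0.03 to 0.03. Among named members the sign turned in soleus for Mrps18a (-0.13) and Mrpl23 (-0.18) without Myc replicates 3 and 4 together, for both without Myc replicate 4 and with the replicate block (-0.02 each), for Mrpl23 without control replicate 1 (-0.00017), for Mrps36 without control replicate 3 (-0.30 to 0.019 with 1 library left out), and for Mrpl51, which lies at 0.00, under 3 scalings or tests and without 3 single libraries (up to 0.07). In quadriceps it turned for Mrpl28 without Myc replicate 1 (0.04) and for Mrps18c without control replicate 1 (-0.15) or Myc replicate 1 (-0.10). None of these passed the test; the cause was not tested. Leaving out each library from the summed shares was chosen after seeing the data and kept the soleus log2 ratio at 0.18 to 0.24, against 0.20.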

Other observations

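Members that did not pass the test in soleus but did under library-size scaling were Mrpl9 and Mrpl12, both large-subunit genes of bacterial descent, with log2 changes of 0.33 and 0.30. That scaling moved the soleus median over all genes from -0.03 to 0.01.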
